A study of Homo sapiens with 30 samples.

Results

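The genes described here are 39 that act at the passage of cells into S phase and in the copying of DNA: the origin licensing factors, the replicative helicase and its activators, the clamp and clamp loader, the DNA polymerases, the enzymes that finish Okazaki fragments, the G1 cyclins and E2F factors, and chromatin proteins that work at the fork. They were chosen by gene symbol with earlier results of these data known, and all 39 were found among the 58735 genes of the deposited count table. All 39 had enough reads to be tested, among 18296 genes that did.

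Before S phase, the origin recognition complex, CDC6 and CDT1 load rings of the MCM helicase onto DNA, and these rings are switched on at the start of S phase by CDC45 and the GINS complex. The genes for much of this machinery are switched on by E2F factors once cyclin D and cyclin E kinases have inactivated the RB protein, so that their messages run high in late G1 and S phase and low in resting cells. In androgen-dependent prostate cancer cells androgen can drive cells from G1 into S phase, and mTOR, the kinase of growth-controlling complexes, is needed for cell growth in G1. Whether the dose of androgen used here does so was not tested.

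LNCaP cells, an androgen-dependent human prostate cancer line, carried an shRNA against mTOR in every group and were rescued by an inducible system with wild-type mTOR (WT), mTOR tagged with a nuclear export signal (NES), mTOR tagged with a nuclear localization signal (NLS), the nuclear form with the kinase-dead change D2357E (NLSKD), or an empty vector (EV). Each of these 5 lines was grown in 2% charcoal-stripped serum, which lacks androgen, for 48 h and then received 10 nM of the synthetic androgen R1881 or ethanol vehicle (0.1%) for 24 h. Total RNA from 3 libraries of each of the 10 groups was sequenced. The labels call them triplicates and say neither whether they were separate cultures nor whether a line was 1 clone, so p-values measure the spread between these libraries, which may be technical.

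Library totals, as the deposited tables give them, ran from 21435364 to 61762468 counts. MTOR averaged 1602 CPM (counts scaled to a common library total) in WT, 4293 in NES, 1036 in NLS, 1082 in NLSKD and 66.0 in EV under R1881, and 1839, 5249, 929, 1015 and 25.7 CPM in these lines under vehicle. These counts include reads of the constructs as well as of the endogenous gene, and cells free of the shRNA were not analysed here. The luminal prostate markers were present in every library (lowest value 6.43 CPM, for KLK2), while 3 of 4 basal markers (TP63, KRT5 and KRT15) and the neuroendocrine markers CHGA, CHGB and INSM1 had a median of 0 CPM. Of the others in these lists, basal KRT14 had a median of 0.281 and a highest value of 2.85 CPM, and neuroendocrine SYP was detected in every library (0.371 to 3.33 CPM). Of 4 mesenchymal markers FN1 (median 193 CPM) and VIM (14.2 CPM) were present in every library, ZEB1 had a median of 0.103 CPM and CDH2 of 0 CPM. Mitochondrially encoded genes, whose share is one sign of RNA quality, took from 3.90% to 11.7% of the counts of a library.

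Compared per length on the deposited FPKM scale, the sliding clamp PCNA was the most abundant of the 39 genes, with a median of 91.5 FPKM over the 30 libraries and a range of 65.4 to 132 FPKM. The G1 cyclin CCND1 followed at 65.8 FPKM, then the helicase subunit MCM7 at 28.7 FPKM and the flap endonuclease FEN1 at 20.05 FPKM. The lowest medians were 1.03 FPKM for E2F2, a transcription factor of the E2F family, and 0.795 FPKM for POLA2, a subunit of the priming polymerase. The spans of 14 of the 39 genes overlap another tested gene. Of these, 11 overlap a gene on the other strand and 6 a gene on the same strand. The strand setting is not given in the sources used here. Whether reads in the shared bases were counted for the right gene therefore cannot be told. Among the genes named below this concerns MCM2, MCM7, GINS2, RFC3, POLA1, PRIM1, POLD3, FEN1, CCND1, CCNE2, CHAF1A and CHAF1B.

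Promoter sequences were taken from RefSeq for 33 of the 39 genes (GRCh38.p14). They show which of these genes carry any of 3 exact binding words of E2F close to their start. The words searched were TTTCCCGC, TTTCGCGC and TTTGGCGC on either strand in the 250 bases before the start, where words may overlap each other. Of the 43 promoters of these genes (6 genes have more than 1 start) 15, or 34.9%, held at least 1 word, against 2.32% of all 35116 promoters of the same length. The CCAAT box, common in cell-cycle promoters and searched on either strand, was in 58.1% of the promoters of these genes and in 32% of all promoters. By gene, 14 had an E2F word, 19 a CCAAT box and 9 both. A match describes letters only and says nothing about whether a factor is bound. Other forms of the E2F site were not searched, so a gene without a word may still hold such a site.

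The following 180-base stretches end at the last base before the start and are printed 5′ to 3′ on the strand of the gene, with E2F words and CCAAT boxes (or ATTGG, the box on the other strand) in capitals. MCM6 (chr2:135876444-135876623, minus strand), MCM3 (chr6:52284743-52284922, minus) and E2F2 (chr1:23531234-23531413, minus) are shown because the results turn on these genes. E2F1 (chr20:33686386-33686565, minus) is shown because it is itself an E2F factor. CDC6 (chr17:40287699-40287878, plus) and MCM2 (chr3:127598231-127598410, plus) are shown because they passed in several of the same comparisons and hold none of the exact words searched. Whether they hold other forms of the E2F site was not searched.
MCM6: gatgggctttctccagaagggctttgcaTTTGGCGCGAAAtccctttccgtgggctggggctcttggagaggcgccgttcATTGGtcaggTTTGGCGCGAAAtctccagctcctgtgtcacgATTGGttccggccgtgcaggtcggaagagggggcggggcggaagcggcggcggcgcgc
MCM3: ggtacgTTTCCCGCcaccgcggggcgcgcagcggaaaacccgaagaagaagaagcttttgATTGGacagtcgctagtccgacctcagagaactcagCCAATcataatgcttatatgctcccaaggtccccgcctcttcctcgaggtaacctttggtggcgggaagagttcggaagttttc
E2F1: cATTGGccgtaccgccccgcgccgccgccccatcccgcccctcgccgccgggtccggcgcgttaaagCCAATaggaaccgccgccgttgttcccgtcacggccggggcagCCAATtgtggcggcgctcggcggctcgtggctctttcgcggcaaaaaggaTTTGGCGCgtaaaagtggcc
E2F2: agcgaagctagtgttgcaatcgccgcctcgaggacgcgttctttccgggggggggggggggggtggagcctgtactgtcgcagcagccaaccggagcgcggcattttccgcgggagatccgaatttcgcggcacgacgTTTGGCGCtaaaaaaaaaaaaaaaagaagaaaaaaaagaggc
CDC6: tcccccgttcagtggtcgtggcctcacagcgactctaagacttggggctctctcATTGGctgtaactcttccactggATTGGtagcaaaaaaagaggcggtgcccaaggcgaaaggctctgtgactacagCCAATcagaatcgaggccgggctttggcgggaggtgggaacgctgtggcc
MCM2: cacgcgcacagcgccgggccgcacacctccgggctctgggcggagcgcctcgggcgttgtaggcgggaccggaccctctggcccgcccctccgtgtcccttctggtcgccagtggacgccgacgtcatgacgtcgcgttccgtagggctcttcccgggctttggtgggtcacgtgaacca
Of the E2F words searched, MCM6 holds 4, which lie in 2 pairs of overlapping words, and MCM3, E2F1 and E2F2 hold 1 each. CDC6 holds 3 CCAAT boxes.

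The first question was how each rescue of mTOR set these genes relative to the empty vector while androgen was present. Under R1881, most of the origin licensing genes were higher in WT and in NES cells than in EV cells, several were higher in NLS cells, and 1 was higher in NLSKD cells. A gene was called when its Benjamini-Hochberg adjusted p from edgeR's quasi-likelihood test, over all genes tested, was under 0.05. Of the 39 genes, 15 were higher in WT than in EV and 0 lower, where 3.66% of all tested genes were higher and 4.83% lower. In NES 16 were higher and 0 lower, with 3.27% of all genes higher and 3.69% lower. In NLS 4 were higher and 0 lower, with 2.79% of all genes higher and 3.44% lower, and in NLSKD 1 was higher and 0 lower, with 2.8% of all genes higher and 2.95% lower. The median log2 fold change of the 39 genes was 0.72 in WT and 0.74 in NES, with 0.44 in NLS and 0.32 in NLSKD, and that of all tested genes lay between 0.02 and 0.04 in the same comparisons. These 4 comparisons share the EV libraries. In bulk RNA a larger share of cells in S phase and more RNA per cell cannot be told apart.

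The libraries of WT lay wholly above those of EV for 27 of the 39 genes (13.2% of all tested genes) and those of NES for 32 (15% of all tested genes). The same held for 10 genes in NLS (8.54%) and for 10 in NLSKD (10.3%), and in NLSKD 1 gene lay wholly below EV (10.6%). Without EV replicate 1, NES replicate 2 or NES replicate 3 there were 9 calls in NES, and without EV replicate 3 there were 10, against 16. The 4 calls in NLS became 0 without EV replicate 1 or NLS replicate 3, 1 without EV replicate 3 and 7 without NLS replicate 1. With the replicate number as a block there were 14 calls in NLS and 5 in NLSKD. The 1 call in NLSKD without the block was lost without EV replicate 1, EV replicate 3 or NLSKD replicate 2. The share of all tested genes called with the block is not given here. Whether a rise in calls with the block is particular to these genes therefore cannot be told, here and below.

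**Figure D1:**
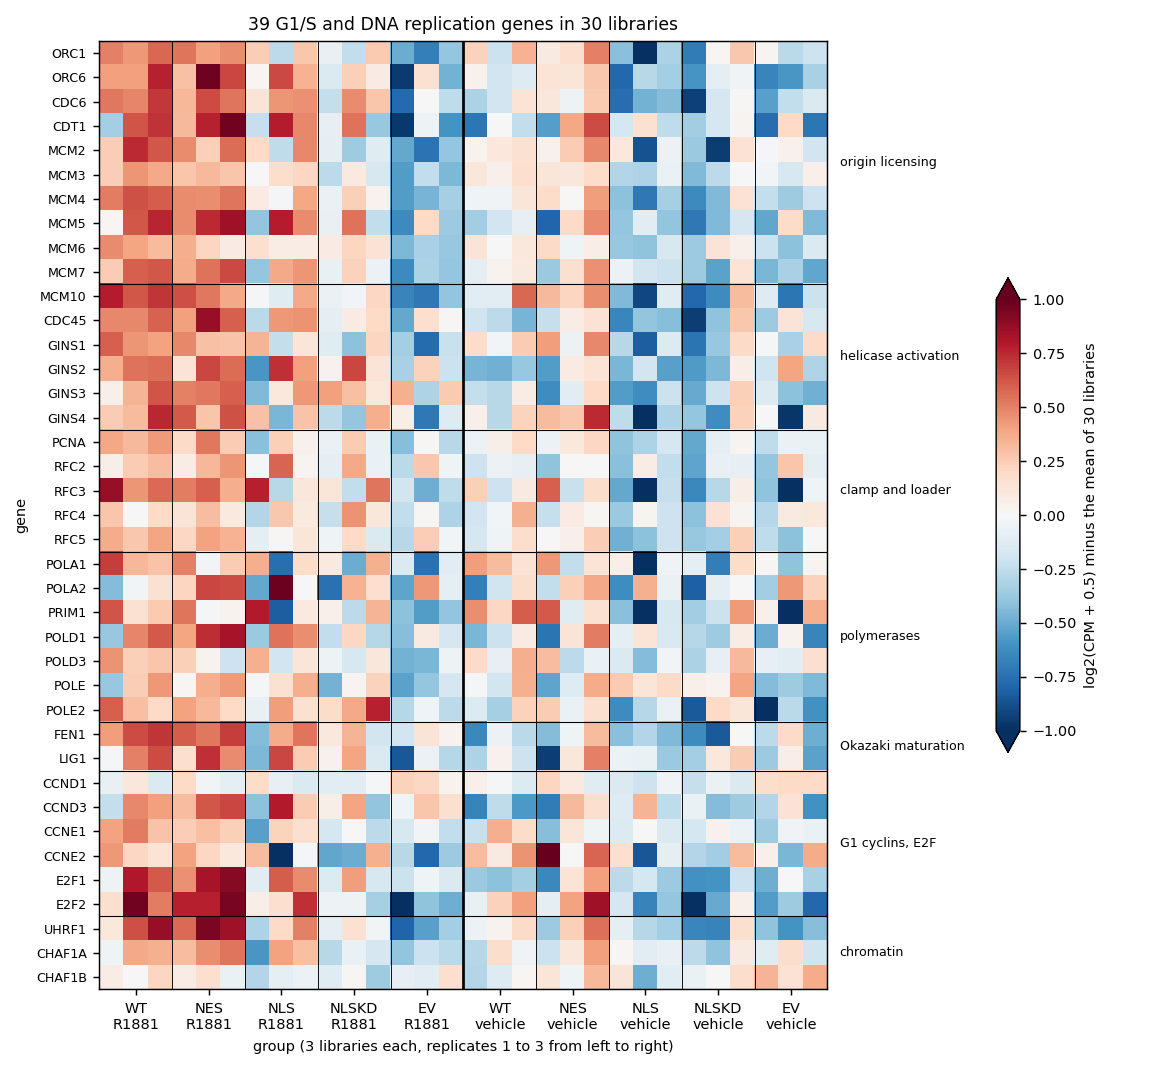
Each row is 1 of the 39 genes and each column 1 of the 30 libraries, grouped by line and treatment with replicates 1 to 3 from left to right; colour is log2(CPM + 0.5) minus the gene's mean over the 30 libraries. The WT and NES columns under R1881 are red for most licensing and helicase rows and the EV columns under R1881 blue, while CCND1 is near 0 in all groups.

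Of the 10 origin licensing genes 8 were higher in WT and 9 in NES, with 3 in NLS and 1 in NLSKD, with medians of 0.92, 0.96, 0.64 and 0.50 in this order of lines. With the replicate number as a block, which pairs the libraries of NLS and of NLSKD with those of EV here, 9 of the 10 passed in NLS (ORC1, ORC6, CDC6, CDT1, MCM2 and MCM7 in addition) and 3 in NLSKD (CDC6 and MCM4 in addition). Blocked values were 0.69 ± 0.16 in NLS and 0.52 ± 0.16 in NLSKD for CDC6, 0.71 ± 0.20 in NLS for MCM2, and 0.53 ± 0.14 in NLSKD for MCM4 (edgeR adjusted p = 0.00440, 0.0334, 0.0236 and 0.0115). Statements below that a gene did not pass in a line refer to the edgeR fit without the block, unless the block or DESeq2 is named.

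MCM4 (ENSG00000104738, hg38 chromosome 8, 47960185 to 47978160), a subunit of the helicase ring, had 135, 147 and 144 CPM in WT, 131, 130.4 and 137 in NES, 99.9, 93.6 and 124 in NLS and 89.9, 111 and 96.4 in NLSKD, against 63.7, 68.1 and 74.7 in EV. Every rescue library lay above every EV library, and the WT and NES libraries also lay above all those of NLS and NLSKD. The log2 fold change over EV was 1.04 ± 0.17 in WT (standard error, here and for all fold changes; edgeR adjusted p = 0.000122), 0.95 ± 0.17 in NES (0.000518), 0.62 ± 0.17 in NLS (0.0230) and 0.53 ± 0.17 in NLSKD, which did not pass.

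MCM6 (ENSG00000076003, chromosome 2, 135839626 to 135876426), the ring subunit whose promoter holds 4 E2F words, was the gene that passed in all 4 lines without the block. It had 104, 98.7 and 93.3 CPM in WT, 96.3, 87.1 and 79.1 in NES, 83.7, 78.6 and 78.9 in NLS and 79.2, 87.2 and 83.0 in NLSKD, against 54.7, 59.8 and 57.6 in EV. No rescue library overlapped an EV library. The log2 fold changes were 0.78 ± 0.13 in WT, 0.61 ± 0.13 in NES, 0.49 ± 0.13 in NLS (edgeR adjusted p = 0.0248) and 0.53 ± 0.13 in NLSKD (0.0139).

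MCM3 (ENSG00000112118, chromosome 6, 52264009 to 52284881), another ring subunit, had 79.2, 90.5 and 86.4 CPM in WT, 80.7, 83.5 and 80.8 in NES, 66.7, 75.2 and 76.7 in NLS and 55.3, 71.2 and 59.3 in NLSKD, against 45.0, 56.1 and 48.6 in EV. Only NLSKD overlapped EV, by 1 library. It was higher by 0.77 ± 0.13 in WT, 0.71 ± 0.13 in NES and 0.55 ± 0.13 in NLS, and the value in NLSKD was 0.31 ± 0.13 (edgeR adjusted p = 0.000308, 0.00107, 0.0120 and 0.219 in this order of lines). MCM2 (ENSG00000073111, chromosome 3, 127598223 to 127622436) had 56.2, 79.7 and 73.1 CPM in WT, 65.9, 55.9 and 69.9 in NES, 54.4, 39.6 and 66.2 in NLS and 44.2, 36.9 and 43.6 in NLSKD, against 33.0, 28.1 and 36.0 in EV. Its fold changes of 1.11 ± 0.24 in WT and 0.98 ± 0.24 in NES passed, and those of 0.72 ± 0.24 in NLS and 0.36 ± 0.24 in NLSKD did not, although no rescue library overlapped EV. MCM7 was higher by 0.94 ± 0.21 in WT and 0.97 ± 0.21 in NES, while MCM5 passed in no line without the block. DESeq2 called MCM5 in NES (0.90 ± 0.31, DESeq2 adjusted p = 0.0486). The blocked fit called it in NES (0.96 ± 0.21, edgeR adjusted p = 0.00292) and WT (0.74 ± 0.21, 0.0187), where the numbers do not pair the libraries.

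The genes that load the rings were also higher in WT and NES. CDC6 (ENSG00000094804, chromosome 17, 40287633 to 40304657), which helps load the rings, had 52.4, 51.0 and 59.4 CPM in WT, 45.7, 57.1 and 52.8 in NES, 39.7, 49.2 and 49.8 in NLS and 30.7, 50.3 and 44.1 in NLSKD, against 20.9, 36.0 and 30.2 in EV. The NLSKD libraries overlapped those of EV and the other lines' libraries did not. CDC6 was higher by 0.90 ± 0.22 in WT and 0.84 ± 0.22 in NES (edgeR adjusted p = 0.00959 and 0.0202), and the values in NLS and NLSKD were 0.67 ± 0.22 and 0.52 ± 0.22. ORC1 and ORC6, subunits of the origin recognition complex, were higher by 1.07 ± 0.24 and 0.93 ± 0.24 in WT and by 1.03 ± 0.23 and 1.06 ± 0.24 in NES. CDT1, the partner of CDC6 in loading, passed in NES (1.22 ± 0.35) and not in WT (0.92 ± 0.35).

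Of the 6 genes of helicase activation 2 passed in WT and 2 in NES, with 0 in NLS and 0 in NLSKD, with medians of 0.67, 0.76, 0.36 and 0.26. MCM10 (ENSG00000065328, chromosome 10, 13161554 to 13211104), which helps switch the helicase on, had 28.2, 25.2 and 26.9 CPM in WT, 25.6, 23.6 and 21.3 in NES, 15.9, 14.9 and 21.2 in NLS and 15.4, 15.9 and 18.8 in NLSKD, against 10.1, 9.68 and 12.2 in EV. Every rescue library was above EV, and the difference was 1.33 ± 0.26 in WT and 1.14 ± 0.26 in NES (edgeR adjusted p = 0.00095 and 0.00532). The blocked fit also called MCM10 in NLS (0.69 ± 0.19, edgeR adjusted p = 0.0199) and NLSKD (0.65 ± 0.19, 0.0309), and GINS1 in NLS (0.54 ± 0.17, 0.0405). GINS1, a GINS subunit, was higher by 0.92 ± 0.23 in WT and 0.80 ± 0.23 in NES. CDC45, which joins the MCM ring and GINS into the active helicase, had 17.7, 17.8 and 19.2 CPM in WT, 16.9, 23.3 and 19.3 in NES, 10.3, 17.2 and 17.4 in NLS and 11.7, 13.3 and 14.5 in NLSKD, against 8.68, 14.2 and 12.7 in EV. WT and NES lay above EV without overlap, yet the fold changes of 0.62 ± 0.25 and 0.74 ± 0.25 did not pass.

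At the elongating fork, 2 of the 5 clamp and loader genes passed in WT and 1 in NES, and 0 of the 2 Okazaki genes passed. PCNA (ENSG00000132646, chromosome 20, 5114953 to 5126626), the clamp that holds polymerases on DNA, had 179.7, 172 and 184 CPM in WT, 157, 199 and 163 in NES, 103, 162 and 142 in NLS and 131, 164 and 131 in NLSKD, against 102, 138 and 113 in EV. WT and NES did not overlap EV, with 0.60 ± 0.17 and 0.55 ± 0.17 (edgeR adjusted p = 0.0227 and 0.0434). Of the 4 subunits of the clamp loader among these genes, RFC3 was higher in WT (0.96 ± 0.28). Of the 7 polymerase genes, POLD3, a subunit of the lagging-strand polymerase, was higher in WT (0.65 ± 0.20) and none passed in the other lines. The blocked fit called POLE in NLS (0.54 ± 0.16, edgeR adjusted p = 0.0278), WT (0.48 ± 0.16, 0.0431) and NES (0.64 ± 0.16, 0.00764). It also called POLA1 in WT and NES, PRIM1 in WT and POLD1 in NES. For WT and NES the numbers do not pair the libraries with those of EV. POLA2 had 3.30, 4.52 and 5.20 CPM in WT, 5.45, 7.67 and 7.55 in NES, 3.09, 9.62 and 4.62 in NLS and 2.57, 6.04 and 5.27 in NLSKD, against 3.07, 6.44 and 4.31 in EV, and all lines overlapped EV. FEN1, which trims Okazaki fragments, had 67.9, 79.9 and 83.6 CPM in WT, 77.4, 73.2 and 82.0 in NES, 37.3, 65.6 and 73.5 in NLS and 54.4, 64.4 and 44.4 in NLSKD, against 44.3, 55.6 and 51.9 in EV. The WT and NES libraries lay above EV, but 0.61 ± 0.24 in each of these lines did not pass (edgeR adjusted p = 0.141 and 0.150).

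**Figure D2:**
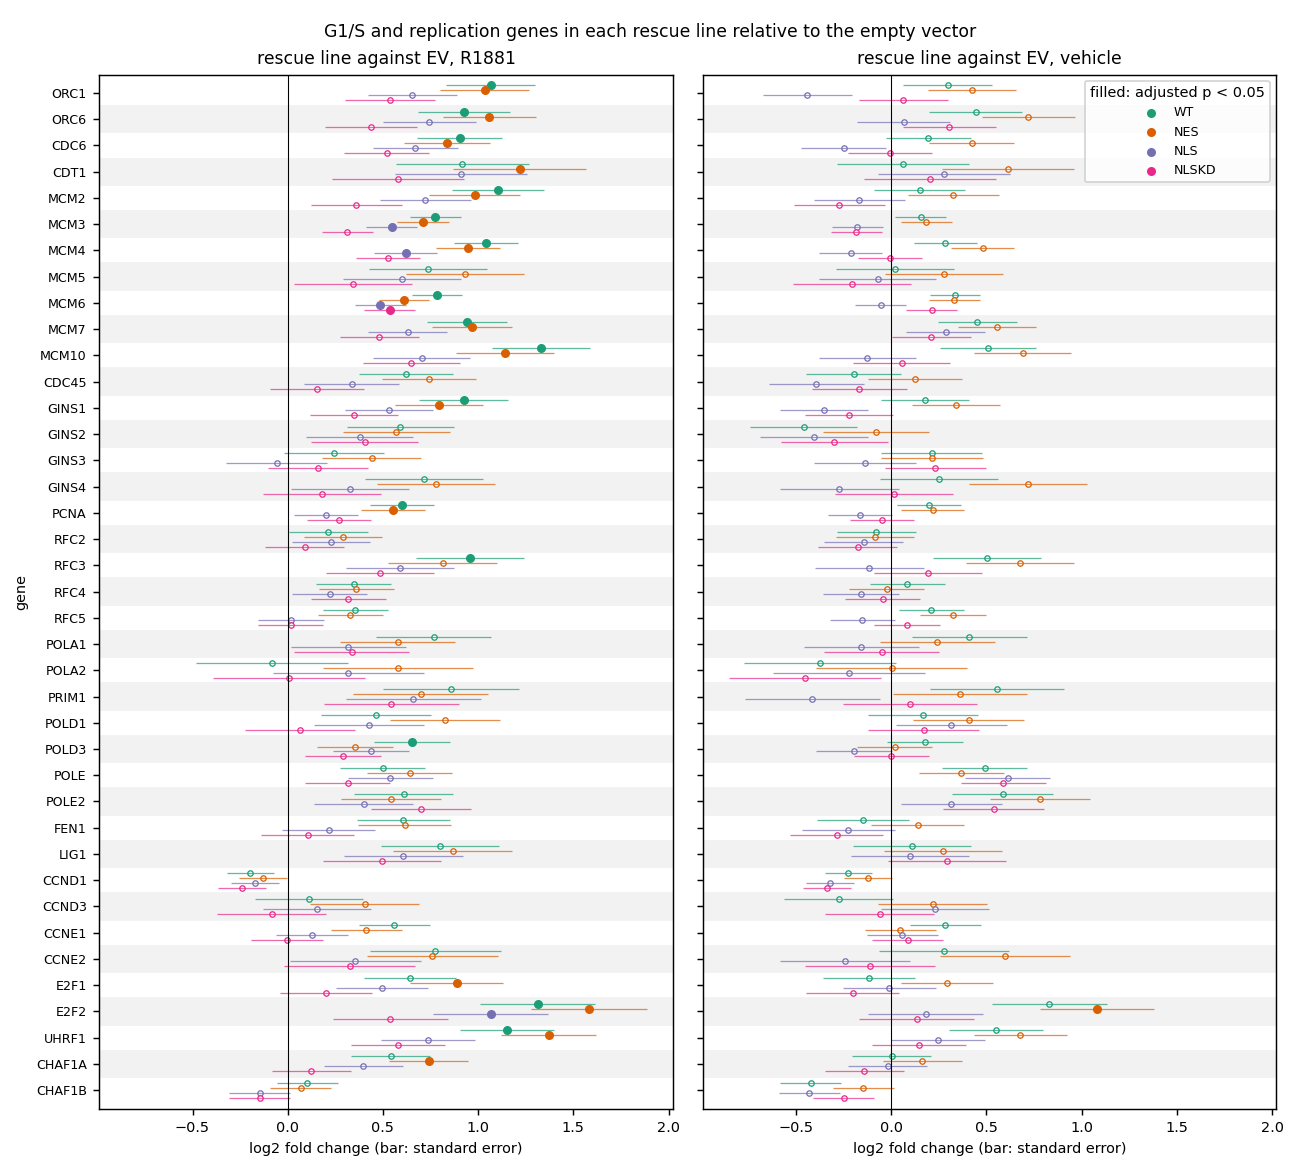
For each gene (rows) the log2 fold change of each rescue line over EV under R1881 (left) and under vehicle (right), with the standard error as a bar; filled points passed at an adjusted p under 0.05. Under R1881 filled points gather among the MCM and ORC genes in WT and NES, and under vehicle the only filled point is E2F2 in NES.

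Among the G1 cyclins and E2F factors, E2F2 had the highest fold change in each of the 4 lines. E2F2 (ENSG00000007968, chromosome 1, 23506430 to 23531220) had 6.72, 12.1 and 8.69 CPM in WT, 10.6, 10.6 and 11.98 in NES, 6.22, 6.75 and 10.2 in NLS and 5.71, 5.71 and 4.62 in NLSKD, against 2.58, 4.38 and 4.09 in EV. No rescue library overlapped EV. It was higher by 1.31 ± 0.30 in WT, 1.58 ± 0.30 in NES and 1.07 ± 0.30 in NLS (edgeR adjusted p = 0.00519, 0.00118 and 0.0314), with 0.54 ± 0.30 in NLSKD. E2F1 (ENSG00000101412, chromosome 20, 33675683 to 33686404) had 32.0, 58.3 and 51.1 CPM in WT, 45.8, 59.1 and 62.8 in NES, 30.7, 50.8 and 46.2 in NLS and 30.2, 44.4 and 29.6 in NLSKD, against 28.5, 32.1 and 29.98 in EV. NES lay wholly above EV and was higher by 0.89 ± 0.24 (edgeR adjusted p = 0.0239), and WT, with 1 library at the EV level, had 0.64 ± 0.24 (0.112).

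The cyclins did not pass in any line without the block. DESeq2 called CCNE1 in WT (0.53 ± 0.19, DESeq2 adjusted p = 0.0484). The blocked fit called CCNE1 in WT (0.56 ± 0.15, edgeR adjusted p = 0.0105). It also called CCNE2 in WT (0.81 ± 0.26, 0.0356) and NES (0.79 ± 0.26, 0.0436). In these comparisons the numbers do not pair the libraries. CCND1 (ENSG00000110092, chromosome 11, 69641087 to 69654474), the D-type cyclin that starts RB inactivation, had 312, 356 and 297 CPM in WT, 378, 324 and 308 in NES, 374, 310.5 and 297 in NLS and 305, 306 and 324 in NLSKD, against 387, 379.9 and 338 in EV. It is the gene for which the NLSKD libraries lay wholly below EV, at a log2 fold change of -0.24 ± 0.13 (edgeR adjusted p = 0.350). CCNE1, which activates CDK2 at the start of S phase, had 21.4, 23.3 and 19.8 CPM in WT, 19.2, 19.9 and 19.1 in NES, 10.9, 18.9 and 18.03 in NLS and 14.2, 16.1 and 13.3 in NLSKD, against 14.4, 15.8 and 13.5 in EV. WT and NES did not overlap EV, and their fold changes were 0.56 ± 0.19 and 0.41 ± 0.19 (edgeR adjusted p = 0.0640 and 0.226).

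Of the 3 chromatin genes, UHRF1 passed in WT and NES and CHAF1A in NES. UHRF1 (ENSG00000276043, chromosome 19, 4903080 to 4962154), which brings the maintenance DNA methyltransferase to newly copied DNA, had 24.5, 35.8 and 41.9 CPM in WT, 33.8, 44.0 and 41.1 in NES, 18.2, 26.2 and 32.3 in NLS and 21.2, 25.3 and 22.2 in NLSKD, against 12.8, 15.4 and 17.8 in EV. No rescue library overlapped EV, and the fold changes were 1.15 ± 0.25 in WT and 1.37 ± 0.25 in NES (edgeR adjusted p = 0.00286 and 0.000684). The blocked fit called UHRF1 in NLS (0.72 ± 0.19, edgeR adjusted p = 0.0144) and NLSKD (0.60 ± 0.19, 0.0484) as well. CHAF1A, the large subunit of the histone chaperone CAF-1, was higher by 0.74 ± 0.21 in NES.

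**Figure D3:**
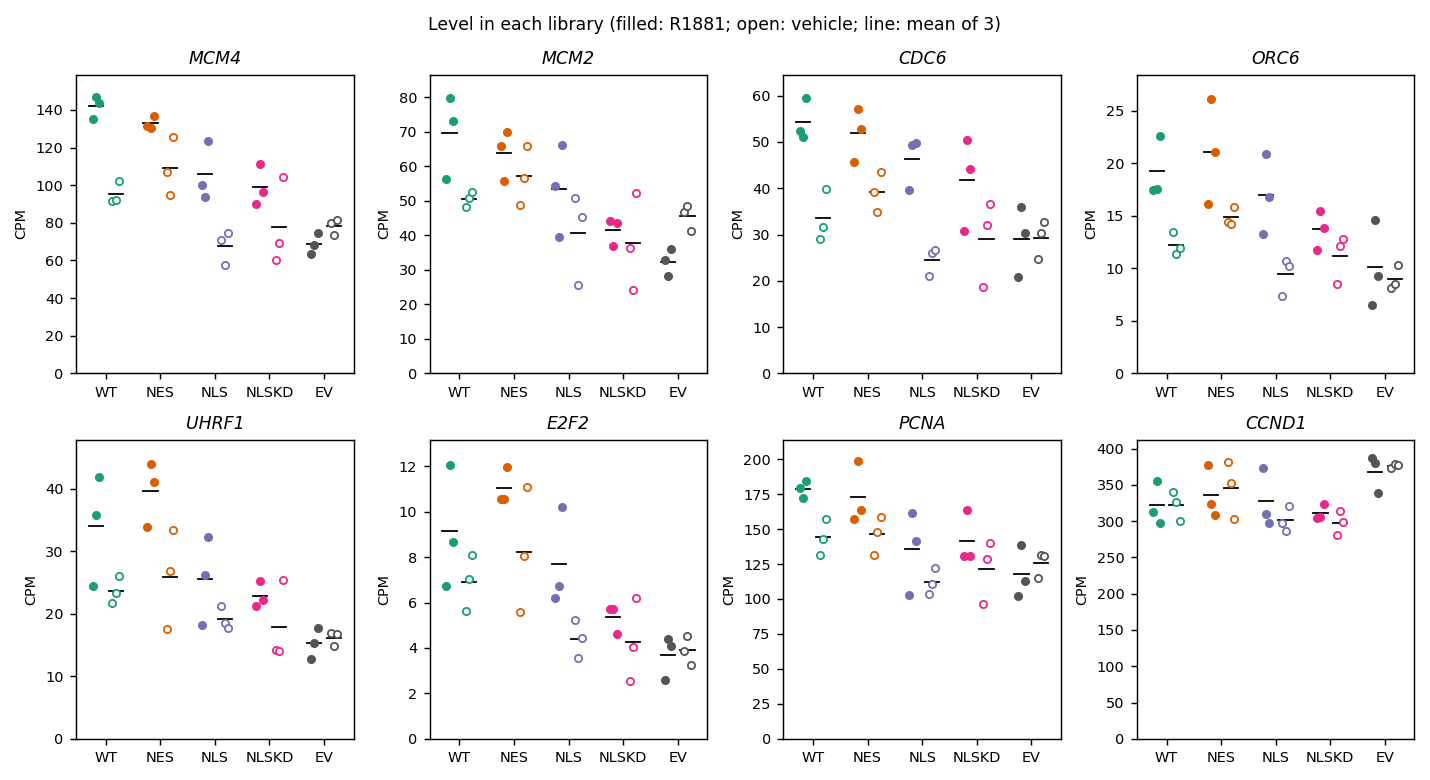
CPM in each library for 8 genes, with filled points for R1881, open points for vehicle and a line at the mean of 3. MCM4 lies at 130.4 to 147 CPM in WT and NES under R1881 and at 63.7 to 74.7 CPM in EV, whereas the CCND1 mean is highest in EV.

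Under vehicle 1 of the 39 genes passed, in 1 of the 4 lines. None was called in WT, NLS or NLSKD, where 2.3%, 1.59% and 1.47% of all tested genes were called higher and 4.41%, 2.98% and 2.54% lower in this order of lines. At an unadjusted p under 0.05 edgeR gave 7 of the 39 in WT, 3 in NLS and 2 in NLSKD, where 17.2%, 14.8% and 12.9% of all tested genes passed that threshold, and DESeq2 called 0 in each. In NES 1 gene passed, with 1.87% of all genes called higher and 3.07% lower. This gene was E2F2, with 5.57, 8.03 and 11.1 CPM in NES against 3.88, 4.54 and 3.24 in EV, which do not overlap (1.08 ± 0.30, edgeR adjusted p = 0.0324). That call was lost when any EV library or NES replicate 2 or 3 was left out, and leaving out NES replicate 1 gave 3 calls.

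The median log2 fold change over EV under vehicle was 0.19 in WT and 0.32 in NES, with -0.15 in NLS and -0.01 in NLSKD. MCM4 had 91.8, 92.2 and 102 CPM in WT, 107, 94.8 and 126 in NES, 70.9, 57.4 and 74.6 in NLS and 60.4, 69.1 and 104 in NLSKD, against 80.0, 73.6 and 81.4 in EV. WT and NES lay above EV, with values that did not pass, and 1 NLS library lay above the lowest EV library. With the replicate number as a block, 1 gene was called in NLS against EV: POLE, the catalytic subunit of the leading-strand polymerase (0.62 ± 0.16, edgeR adjusted p = 0.0138), which had 45.0, 40.8 and 42.8 CPM in NLS and 27.6, 29.1 and 27.4 in EV. The blocked fit also called POLE in NLSKD (0.57 ± 0.16, edgeR adjusted p = 0.0267), where the numbers do not pair the libraries.

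Whether the lines differed from each other was tested directly. The kinase-dead change was addressed by NLS against NLSKD. Under R1881 the median log2 fold change of the 39 genes was 0.14, with 31 of them higher in NLS, and under vehicle it was -0.11, with 16 higher in NLS. Of the 39 genes 0 were called under either treatment by edgeR and by DESeq2. At an unadjusted p under 0.05 there were 0 under R1881 and 1 under vehicle, against 1.95% and 1.63% of all tested genes. The comparison itself called 0.00547% of all tested genes under R1881 and 0.0109% under vehicle. For MCM4 under R1881 the difference was 0.09 ± 0.17, for CDC6 0.15 ± 0.22, for E2F2 0.53 ± 0.30 and for MCM6 -0.05 ± 0.13.

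The nuclear and exported forms of mTOR were compared by NLS against NES. MTOR RNA differed too, with a log2 fold change of -2.05 ± 0.34 under R1881 and -2.50 ± 0.34 under vehicle (edgeR adjusted p = 0.000884 and 0.000181). The place of mTOR and its level therefore cannot be told apart in this comparison. Under R1881, 38 of the 39 genes had a lower estimate in NLS, with a median of -0.28, and edgeR and DESeq2 called 0 of them (2 at an unadjusted p under 0.05, as for 9.19% of all genes), with 0.437% of all genes called lower. Under vehicle 1 of the 39 was lower in NLS, with 0.536% of all genes called lower, and the median was -0.37. This gene was MCM4, at 70.9, 57.4 and 74.6 CPM in NLS and 107, 94.8 and 126 in NES, without overlap (-0.69 ± 0.17, edgeR adjusted p = 0.0373). The call was lost without NES replicate 1 or 3 or without any of the NLS libraries, and 16 of the 39 passed at an unadjusted p under 0.05, against 8.39% of all tested genes.

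A pair of comparisons under R1881 was added after the values had been seen, because several genes passed against EV in WT and NES and not in NLSKD. For WT against NLSKD 0 of the 39 genes were called by edgeR (11 at an unadjusted p under 0.05, against 7.89% of all tested genes), with 0.853% of all genes called. The median was 0.40, and 37 genes had a higher estimate in WT. For NES against NLSKD 0 were called (14 at an unadjusted p under 0.05, against 14.4% of all tested genes), with 3.01% of all genes called. Here the median was 0.42, 38 genes had a higher estimate in NES. E2F2 came nearest, at 1.04 ± 0.30 for NES against NLSKD (edgeR adjusted p = 0.0541), and MCM4 was at 0.52 ± 0.17 for WT and 0.42 ± 0.17 for NES against NLSKD (0.223 and 0.212).

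The response to androgen within each line was the second question. In the fit without the replicate block, R1881 raised 5 of the 39 genes in WT cells and 3 in NLS cells, with none lowered. In EV, NES and NLSKD cells 0 passed in either direction in that fit. With the block, which pairs the libraries of the NES response, 8 genes passed in NES, all higher. They were MCM5, CDC45, GINS3, RFC2, POLD1, FEN1, E2F1 and UHRF1. Without the block, the share of all tested genes called higher was 3.47% in WT, 2.78% in NLS, 4.55% in EV, 4.21% in NES and 2.48% in NLSKD. The share called lower was 3.01%, 1.66%, 4.55%, 4.04% and 1.6% in these lines. At an unadjusted p under 0.05 edgeR gave 8 of the 39 in NES, 6 in NLSKD and 1 in EV, where 19.1%, 11.1% and 19.2% of all tested genes passed that threshold, and DESeq2 called 1 in EV, 1 in NES and 0 in NLSKD. The median log2 fold change of R1881 over vehicle was 0.46 in WT, 0.32 in NES, 0.41 in NLS, 0.22 in NLSKD and -0.08 in EV, with all-gene medians between -0.04 and 0.02.

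In WT the 5 genes were FEN1, E2F1, GINS2, MCM4 and CDC45. FEN1 had 67.9, 79.9 and 83.6 CPM under R1881 and 32.3, 48.7 and 41.9 under vehicle (0.91 ± 0.25, edgeR adjusted p = 0.0197). E2F1 had 32.0, 58.3 and 51.1 CPM under R1881 and 25.6, 24.9 and 26.05 under vehicle (0.88 ± 0.24, edgeR adjusted p = 0.0239). GINS2, a GINS subunit, had 16.3, 18.6 and 18.8 CPM under R1881 and 8.995, 8.92 and 9.57 under vehicle (0.97 ± 0.28, edgeR adjusted p = 0.0355). For none of the 5 did the treatments overlap, and MCM4 rose by 0.57 ± 0.17 and CDC45 by 0.85 ± 0.25. With the replicate number as a block 11 genes passed, and leaving out any 1 of the 6 libraries gave 0 to 2 calls.

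In NLS the genes were CDC6, MCM4 and ORC6, all of origin licensing. CDC6 had 39.7, 49.2 and 49.8 CPM under R1881 and 21.1, 26.01 and 26.7 under vehicle (0.91 ± 0.22, edgeR adjusted p = 0.0139). MCM4 had 99.9, 93.6 and 124 CPM under R1881 and 70.9, 57.4 and 74.6 under vehicle (0.64 ± 0.17, edgeR adjusted p = 0.0205). ORC6 had 13.3, 20.9 and 16.8 CPM under R1881 and 7.39, 10.7 and 10.2 under vehicle (0.84 ± 0.24, edgeR adjusted p = 0.0435), and none of the 3 overlapped between treatments. The count was 0 without R1881 replicate 3 or vehicle replicate 1, 1 without vehicle replicate 2 and 6 without R1881 replicate 1. It was also 0 without the libraries above 9% mitochondrial share and when the fit held only the compared groups.

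In EV no licensing gene passed. MCM3 had 45.0, 56.1 and 48.6 CPM under R1881 and 65.3, 59.6 and 68.9 under vehicle, without overlap, a change of -0.37 ± 0.13 that did not pass (edgeR adjusted p = 0.0883). With the replicate number as a block it did pass (-0.38 ± 0.12, edgeR adjusted p = 0.0333), as it did in DESeq2. CDC6 had 20.9, 36.0 and 30.2 CPM under R1881 and 24.7, 30.4 and 32.6 under vehicle, and E2F1 had 28.5, 32.1 and 29.98 under R1881 and 23.5, 33.2 and 26.4 under vehicle, both with overlap. In NLSKD the blocked fit called CDC6 (0.53 ± 0.16, edgeR adjusted p = 0.0425).

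The difference between each line's androgen response and that of EV was tested as an interaction. No gene of the 39 passed in any of the 4 lines by edgeR, where 0.0437% of all tested genes did for WT, 0% for NES and 0.0164% for each of NLS and NLSKD. DESeq2 called 1, MCM3 in NLS. At an unadjusted p under 0.05 edgeR gave 13 of the 39 in WT and 1 in NES, with 12 in NLS and 2 in NLSKD, where 3.86%, 2.68%, 3.83% and 3.61% of all tested genes passed that threshold. The median difference in log2 fold change was 0.48 in WT and 0.41 in NES, with 0.54 in NLS and 0.32 in NLSKD, and the estimate was above 0 for 39, 37, 37 and 33 genes in this order of lines, which share the EV libraries. For MCM3 the difference was 0.62 ± 0.19 in WT and 0.53 ± 0.19 in NES, with 0.72 ± 0.19 in NLS and 0.50 ± 0.19 in NLSKD (lowest edgeR adjusted p 0.481, in NLS).

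**Figure D4:**
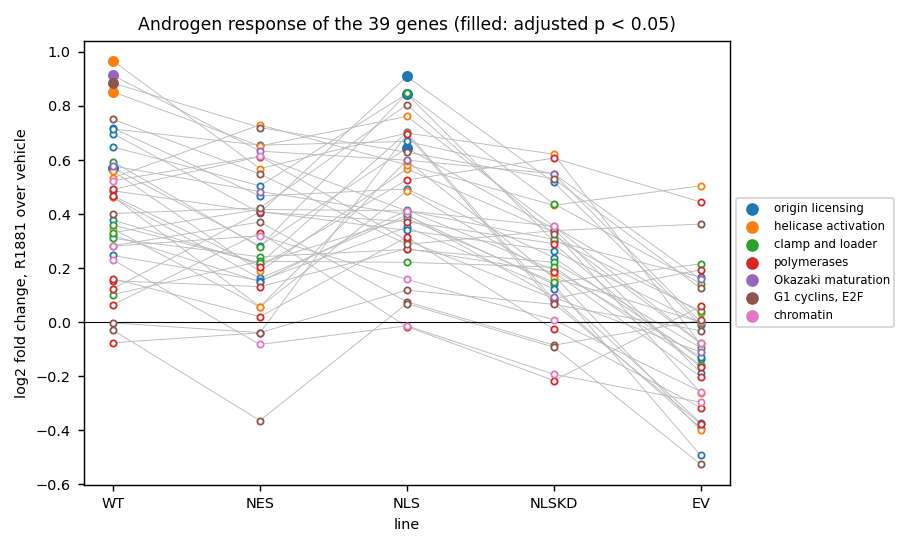
The log2 fold change of R1881 over vehicle of each of the 39 genes in the 5 lines, coloured by role, with a thin line joining each gene; filled points passed at an adjusted p under 0.05. In WT 5 points are filled and in NLS 3, and most EV points lie near or below 0.

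Most of the genes also varied together from library to library. Over the 30 libraries, which share lines, treatments and depth, the correlation of a gene's log2 level with the mean of the other members was 0.95 for MCM4, 0.94 for UHRF1, and 0.91 for MCM7, E2F2 and CDC6. It was 0.21 for CHAF1B, the middle subunit of CAF-1, and -0.17 for CCND1, while all tested genes ran from -0.50 (5th percentile) to 0.51 (95th percentile). CCNE2 (0.32), PRIM1 (0.37), POLA1 (0.39), CCND3 (0.45), POLD3 (0.46) and POLA2 (0.47) also lay within that range. After group means were removed the correlation was 0.86 for UHRF1, 0.82 for MCM7 and 0.81 for E2F2. It was below 0 for 5 genes, CCND1 (-0.42), POLA1 (-0.17), PRIM1 (-0.12), RFC3 (-0.10) and CCNE2 (-0.04). The range of all tested genes for these values is not given here.

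Summed over the 38 genes other than CCND1, the level under R1881 was 1700.3 ± 138 CPM in WT, 1718 ± 91.1 in NES, 1408 ± 204 in NLS, 1289 ± 130 in NLSKD and 1031 ± 99.2 in EV (SD, n = 3 each). Under vehicle it was 1244 ± 87.5 CPM in WT, 1362 ± 198 in NES, 1053 ± 35.6 in NLS, 1091 ± 215 in NLSKD and 1089.6 ± 49.2 in EV. The WT and NES sums under R1881 lay above every EV and NLSKD sum under R1881. The summed level of 25 genes of G2 and mitosis under R1881 was 862 ± 131 CPM in WT, 1068 ± 108 in NES, 783 ± 149 in NLS, 744 ± 114 in NLSKD and 591 ± 34.6 in EV. The mitochondrial share under R1881 averaged 5.605% in WT, 6.68% in NES, 7.50% in NLS, 7.18% in NLSKD and 6.51% in EV. Without the libraries above 9% the count of higher genes against EV was 16 in WT and 9 in NES, with 4 in NLS and 1 in NLSKD.

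**Figure D5:**
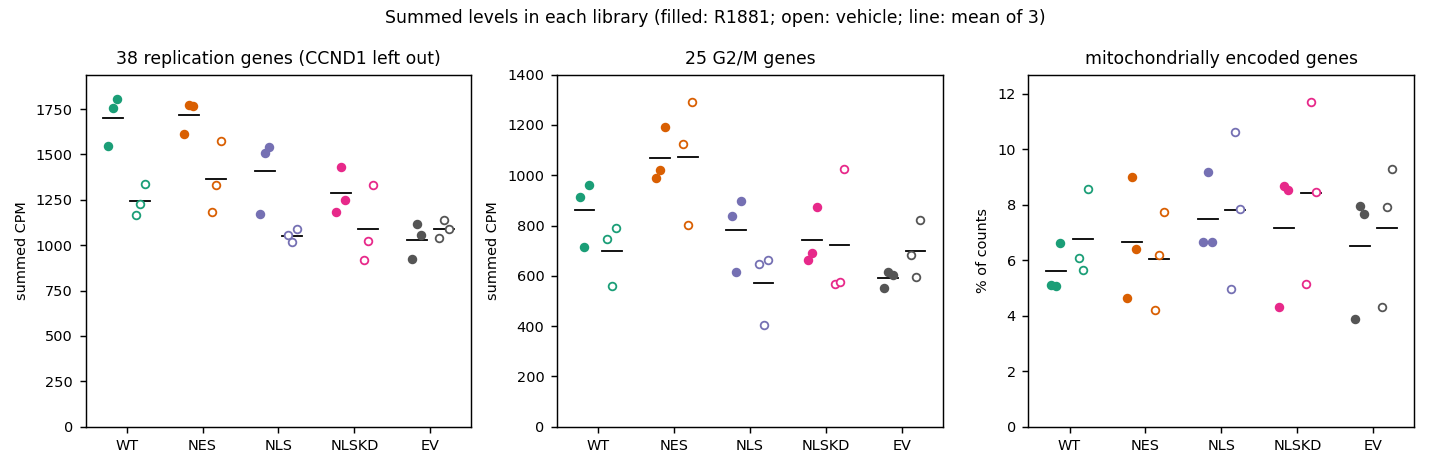
Summed CPM of the 38 replication genes without CCND1 (left), summed CPM of 25 G2/M genes (middle) and the mitochondrially encoded share of counts (right), for each library, with filled points for R1881, open points for vehicle and a line at the mean of 3. The replication sums of WT and NES under R1881 average 1700.3 and 1718 CPM, against 1031 CPM in EV.

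Other genes of the same processes were followed through 4 further lists. Against EV under R1881, 3.66%, 3.27%, 2.79% and 2.8% of all tested genes were called higher in WT, NES, NLS and NLSKD. The shares called lower were 4.83%, 3.69%, 3.44% and 2.95% in this order of lines. For the lists other than nucleotide supply, a count of 1 gene is near these shares. Of 33 other replication genes, 6 were higher and 1 lower in WT than in EV under R1881, 6 were higher and 0 lower in NES, and 0 were higher and 1 lower in NLS and in NLSKD. The medians of this list were 0.36 in WT and 0.42 in NES, with 0.22 in NLS and 0.21 in NLSKD. GMNN, which encodes geminin, the inhibitor of CDT1, was the gene that was lower in WT (-0.72 ± 0.17), in NLS (-0.68 ± 0.17) and in NLSKD (-0.84 ± 0.17, edgeR adjusted p = 0.00245). TIMELESS, a fork protection factor, was higher in WT (0.69 ± 0.17) and NES (0.77 ± 0.17), RPA1, which coats single-stranded DNA, in WT (0.46 ± 0.11), and RECQL4 (1.60 ± 0.38) and the maintenance methyltransferase DNMT1 (0.89 ± 0.22) in NES.

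Of 26 tested regulators of the G1/S step (CCND2, the 27th, was not tested), 2 were higher and 1 lower in WT, 1 was higher in NES, and 1 was lower in NLS and in NLSKD against EV under R1881. CDKN1A, the CDK inhibitor p21, was lower in WT (-0.71 ± 0.20), NLS (-0.88 ± 0.20) and NLSKD (-0.95 ± 0.20, edgeR adjusted p = 0.00395). E2F8, a repressor of the E2F family, was higher in WT (1.22 ± 0.33) and NES (1.31 ± 0.33), and CDK6 in WT (1.53 ± 0.48). Medians of the list ran from 0.02 to 0.25.

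Of 25 genes of G2 and mitosis, 1 was higher in WT and 8 in NES, with medians of 0.51 in WT and 0.86 in NES, with 0.40 in NLS and 0.32 in NLSKD. CDK1, the kinase of mitotic entry, was higher in WT (0.81 ± 0.20) and NES (0.94 ± 0.20), and PLK1 (1.32 ± 0.32) and CDC25C (1.02 ± 0.26) in NES. The proliferation marker MKI67 had 47.6, 48.3 and 60.0 CPM in WT, 70.6, 57.6 and 75.5 in NES, 51.4, 27.7 and 65.0 in NLS and 40.1, 32.9 and 54.8 in NLSKD, against 38.7, 32.2 and 45.5 in EV. It passed in no comparison, with 0.81 ± 0.30 in NES and 0.42 ± 0.30 in WT (edgeR adjusted p = 0.124 and 0.5003). Of 9 genes of nucleotide supply, thymidylate synthase TYMS was higher in NES (1.10 ± 0.31).

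Under vehicle several genes of these lists passed. POLE3, a small polymerase epsilon subunit, was lower in WT (-0.51 ± 0.13) and NLS (-0.59 ± 0.13), GMNN in NLS (-0.73 ± 0.17) and NLSKD (-0.67 ± 0.17), and CDK1 was higher in NES (0.77 ± 0.20). E2F5 was higher (0.75 ± 0.20) and the CDK inhibitor CDKN1C lower (-1.26 ± 0.36) in WT, and TFDP2, a partner of E2F factors, was lower in NLS (-0.53 ± 0.16). In NLS against NES under vehicle, CDK1 (-0.85 ± 0.20), AURKA, a mitotic kinase (-1.04 ± 0.26), and TFDP1, another E2F partner (-0.50 ± 0.11), were lower.

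Among the regulators, CDK6, a partner of the D-type cyclins, rose with androgen in all 5 lines. It rose by 2.09 ± 0.49 in WT, 1.95 ± 0.50 in NES, 2.28 ± 0.52 in NLS, 1.77 ± 0.50 in NLSKD and 2.21 ± 0.52 in EV. CDC25A, the phosphatase that activates CDK2, rose by 0.87 ± 0.19 in WT and 0.67 ± 0.18 in NES, and by 0.83 ± 0.19 in NLS and 0.61 ± 0.19 in EV. CDK2 rose in NES (0.64 ± 0.15), NLS (0.60 ± 0.15) and NLSKD (0.54 ± 0.15). Of the other replication genes, PRIM2, the large primase subunit, rose in WT (0.71 ± 0.17), NLS (0.72 ± 0.17) and EV (0.87 ± 0.17), and ORC5 in WT (0.79 ± 0.22), NLS (0.89 ± 0.22), NLSKD (0.91 ± 0.22) and EV (0.91 ± 0.22). For none of these did the response differ from that of EV by the interaction test.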

How the data were processed

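The authors deposited, per the file headers, raw read counts and FPKM values for 58735 genes in 30 libraries. HISAT2 2.0.5, featureCounts 1.5.0-p3 and the hg38 build are named, per the submitters' processing notes. How strand and multiply matching reads were handled is unstated in the sources used here. Counts were analysed in R 4.3.3 with edgeR 4.0.16 (filterByExpr, TMM factors, glmQLFit and glmQLFTest, two-sided), in 1 fit of all 30 libraries with 1 mean per group. The filter left 18296 genes, over which Benjamini-Hochberg adjustment ran. Levels are CPM on TMM-scaled library totals, and the deposited FPKM was used only to compare genes with each other. The procedure was also run on simulated counts, whose outcome is not given here. Those libraries were drawn independently, without the correlation of same-numbered libraries seen in these data.

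The 39 genes, the further lists (other replication genes, G1/S regulators, nucleotide supply, G2 and mitosis) and the tests were chosen with earlier results of these data known. Values in every library are given for up to 4 called genes of each comparison by adjusted p and for CDC6, MCM2, CDC45, PCNA, POLA2, FEN1, CCND1, CCNE1, E2F1 and UHRF1, and up to 3 called genes of each further list are named, besides MTOR and MKI67. A few other values were chosen after they were seen (MCM3 in EV, POLE, MCM4 under vehicle).

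Replicate numbers were taken to pair libraries where every same-numbered pair correlated above 0.1 in its deviations from the group means. This held for the androgen responses in EV, WT, NES and NLSKD, for NLS and NLSKD against EV under R1881, for NLS against EV and against NLSKD under vehicle, and for NLS against NES under R1881. Alternatives were DESeq2 1.42.0, RLE size factors, no low-count filter, the replicate block, the compared groups alone, leaving out each library, and leaving out libraries above 9% mitochondrial share. In a chi-square test of counts the closest pair of replicates had 12.7 per degree of freedom, beyond sampling noise, and all were kept as separate replicates. A gene of the cell type marker lists is not reported here.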

Additional observations from a re-analysis of the deposited data

How the results depend on the processing

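In each comparison the value is the number of the 39 genes called. RLE size factors changed no count by more than 1.5 times, and no called gene reversed its direction under any alternative run. Without the low-count filter NLS against EV under R1881 gave 2 calls, and NLSKD against EV under R1881 and NLS against NES under vehicle gave 0. With the compared groups alone the WT response gave 9, while the NLS response, NLS and NLSKD against EV under R1881, NES against EV under vehicle and NLS against NES under vehicle gave 0. Without libraries above 9% mitochondrial share NES against EV under R1881 gave 9, and the NLS response, NES against EV under vehicle and NLS against NES under vehicle gave 0. DESeq2 gave 1 in the EV response, 1 in the NES response, 8 for NLS and 2 for NLSKD against EV under R1881, 2 for NLS against NES under vehicle and 1 for the NLS interaction. The replicate block gave 1 in the EV, 11 in the WT, 8 in the NES, 7 in the NLS and 1 in the NLSKD response. Against EV under R1881 it gave 27 in WT and 26 in NES, with 14 in NLS and 5 in NLSKD, under vehicle 7 in NES and 1 in each of the other lines, and 7 for NLS against NES under vehicle. It took no call away, and the share of all tested genes that it called is not given here. Where the numbers do not pair the libraries (WT and NES against EV under R1881, for example) the block rests on a shared number only. Leaving out each library gave 0 to 2 in the WT, 0 to 1 in the NES, 0 to 6 in the NLS and 0 to 1 in the NLSKD response, 10 to 13 for WT, 9 to 14 for NES, 0 to 7 for NLS and 0 to 1 for NLSKD against EV under R1881, 0 to 3 for NES against EV and 0 to 1 for NLS against NES under vehicle, and 0 in all other comparisons. The cause of these shifts was not tested.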

Other observations

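Some of the 39 genes had their lowest value in the library of the same number in most groups. Replicate 1 was the lowest of 3 in at least 8 of the 10 groups for 8 of the 39 genes (20.5%), against 6.58% of all tested genes, among them RFC2 and POLA2 in 10 of 10 groups. Replicate 2 was the lowest in at least 8 groups for 5 genes (12.8%, against 13% of all tested genes) and replicate 3 for 0 (against 0.47%). The labels do not say what the numbers share, and the part of this in the results was not tested beyond the fits with the number as a block.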
